A study of Mus musculus with 2 samples.

Results

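The genes described here are those of the mouse major histocompatibility complex (MHC) and of antigen presentation. They were taken from the gene rows of both deposited matrices by symbol: those beginning with H2-K1, H2-D1, H2-Q, H2-T, H2-M, H2-A, H2-E, H2-O or H2-DM, plus B2m, Cd74, Tap1, Tap2, Tapbp, Ciita and Nlrc5. The rule found 40 of 32285 genes, 29 of class I and 11 of class II, and 36 of them lie on chromosome 17. Of these, 25 had at least 200 unique molecular identifiers (UMIs, each standing for 1 captured RNA molecule) over both pools, 15 of class I and 10 of class II. A further 7 had between 1 and 79 UMIs: H2-Eb2 with 79, H2-M5 with 14, H2-Q2 with 12, H2-M10.1 with 11, H2-Q10 with 6, and H2-Q1 and H2-M10.2 with 1 each. The other 8, all among the 12 H2-M genes, had 0 UMIs, a count that allows up to 0.0231 UMIs per 1000000 gene UMIs over both pools.

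The study asked what long-term iron chelation does to blood stem and progenitor cells during ageing. Mice of about 6 months received the iron chelator deferoxamine (50 mg/kg) or the vehicle HBSS each day for 7 days, a course repeated every 4 weeks over 13 months. Bone marrow cells without lineage markers but with Sca-1 and c-Kit (LSK), the compartment that holds haematopoietic stem cells (HSC) and multipotent progenitors (MPP), were then sorted. RNA and surface proteins were read together by CITE-seq, in which antibodies carry sequence tags. Each condition was 1 pool marked by its own hashtag antibody, and both pools ran in 1 loading of a 5′ kit. The control pool is therefore vehicle-treated aged mice and the chelator pool deferoxamine-treated aged mice of the same regimen. The labels used here give neither strain nor number of mice. Both pools mixed cells of both sexes, told apart below as Xist cells and Y cells by the transcripts they held, and Xist cells were 42.1% of the sexed control cells and 26.1% of the sexed chelator cells. With 1 pool per condition there is no replicate check and no test: every interval given is a 95% counting interval, covering counting error only.

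MHC class I molecules, a polymorphic heavy chain paired with the light chain B2m, sit on nearly all nucleated cells and show peptides from inside the cell to CD8 T cells and natural killer cells. Those peptides are cut by the proteasome, carried into the endoplasmic reticulum by the Tap1-Tap2 transporter and loaded with the help of Tapbp. Class II molecules, made of an alpha and a beta chain (H2-Aa with H2-Ab1, and the H2-E chains), are carried to endosomes by the invariant chain Cd74, loaded there under the peptide editors H2-DM and H2-O, and shown to CD4 T cells. Their transcription is switched on by Ciita, as that of class I is promoted by Nlrc5. They are best known from dendritic cells, B cells and macrophages, and stem cells also carry some.

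The regions just before the gene starts are given for 5 members on which the comparison of gates turns: the main class I pair H2-K1 and H2-D1, H2-T3, and the class II genes H2-Eb1 and H2-Ob. Each is the 250 bases before the start in RefSeq, build GRCm38.p6, read along the gene's strand. The starts are those of the promoter table, and that of H2-K1 lies inside the gene's annotated range, which ends at 34000619. Capitals mark matches, on either strand, to an interferon response motif (GAANNGAAA), an NF-kB motif (GGGATTCCC) and the Y box of MHC genes (TGATTGG). No marked matches overlap.
H2-K1, chr17:34000348-34000597, minus strand: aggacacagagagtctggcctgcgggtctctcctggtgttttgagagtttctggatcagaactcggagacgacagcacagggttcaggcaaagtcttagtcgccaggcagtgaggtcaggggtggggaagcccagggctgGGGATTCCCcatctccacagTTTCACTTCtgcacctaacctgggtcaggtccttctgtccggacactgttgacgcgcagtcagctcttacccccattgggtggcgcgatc
H2-D1, chr17:35262844-35263093, plus strand: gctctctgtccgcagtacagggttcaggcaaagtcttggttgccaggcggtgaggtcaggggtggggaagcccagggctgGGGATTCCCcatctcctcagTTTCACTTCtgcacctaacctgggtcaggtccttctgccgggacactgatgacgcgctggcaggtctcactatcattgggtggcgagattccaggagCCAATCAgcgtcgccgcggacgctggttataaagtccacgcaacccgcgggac
H2-T3, chr17:36190152-36190401, minus strand: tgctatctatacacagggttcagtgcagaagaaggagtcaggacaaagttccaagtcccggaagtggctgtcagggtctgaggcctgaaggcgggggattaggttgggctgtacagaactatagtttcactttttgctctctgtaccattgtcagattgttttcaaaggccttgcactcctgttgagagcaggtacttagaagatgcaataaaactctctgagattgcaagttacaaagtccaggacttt
H2-Eb1, chr17:34305617-34305866, plus strand: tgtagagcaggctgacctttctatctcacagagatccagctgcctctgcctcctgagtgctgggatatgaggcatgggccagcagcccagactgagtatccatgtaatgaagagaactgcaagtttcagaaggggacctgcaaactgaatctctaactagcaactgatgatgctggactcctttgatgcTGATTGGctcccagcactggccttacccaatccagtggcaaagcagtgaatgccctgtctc
H2-Ob, chr17:34238655-34238904, plus strand: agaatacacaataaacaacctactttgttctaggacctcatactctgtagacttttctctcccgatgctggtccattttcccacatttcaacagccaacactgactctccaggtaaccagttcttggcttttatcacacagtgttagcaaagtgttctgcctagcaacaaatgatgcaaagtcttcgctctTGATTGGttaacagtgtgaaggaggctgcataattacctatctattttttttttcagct
Of the 25 members with at least 200 UMIs, 19 had an entry in the promoter table. The interferon response letters occurred before 6 of 12 class I genes and 0 of 7 class II genes, against 6.35% of all 27025 promoters of this length. The NF-kB letters occurred before 4 of 12 class I genes (H2-K1, H2-D1, H2-Q6 and H2-Q7), against 0.315% of all promoters. The Y box occurred before 6 of 7 class II genes and 7 of 12 class I genes, against 7.64% of all. H2-T3 held none of these letters in this window. Such matches describe the sequence and show no binding.

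Of 4026 control and 4037 chelator barcodes, 3969 and 3998 passed the filters on cells, and no barcode occurred in both pools. They held 63240358 and 66508812 gene UMIs, with medians of 13705 and 14456 per cell. Cells were gated by the surface tags CD135, CD48 and CD150 into HSC (CD150 alone), MPP1 (none of these tags), MPP2 (CD48 and CD150), MPP3 (CD48 alone) and MPP4 (CD135 without CD150). These gates held 29.3%, 13.8%, 2.29%, 12.6% and 38.0% of control cells and 32.8%, 14.1%, 2.50%, 15.4% and 32.2% of chelator cells. Marker RNA followed the gates: Slamf1 stood at 58.2 UMIs per 1000000 gene UMIs (CPM) in the HSC gate and 0.910 CPM in the MPP4 gate of the control pool, and Dntt at 1.94 and 398 CPM. Depth also differed between gates, with median UMIs of 12693 in the HSC gate and 14524 in the MPP4 gate of the control pool, and of 13304 and 16507 in the chelator pool.

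As a share of all gene UMIs, class I RNA was highest in the HSC gate and lower in the more committed gates of both pools. Summed over 25 genes (24 heavy chains and B2m), its level in the control pool was 6212 CPM in HSC, 5955 in MPP1, 4952 in MPP2, 4663 in MPP3 and 4918 in MPP4. In the chelator pool it was 5929, 5744, 4869, 4624 and 4717 CPM in the same order. Both pools thus fell into a higher pair of CD48-negative, CD135-negative gates and a lower group of MPP2, MPP3 and MPP4. The MPP4 gate stood at 0.792 of the HSC gate in the control pool and 0.795 in the chelator pool. Per cell the order was another. An HSC-gate cell of the control pool held 88.3 class I UMIs and an MPP4-gate cell 82.3, at the median depths given above. The MPP2 gate held 10393 in 91 cells and the MPP3 gate 46071 in 502, against 102666 in 1163 HSC-gate cells. Both gates thus held more per cell than the HSC gate, at median depths of 20586 and 18644.5 UMIs. In the chelator pool MPP2 and MPP3 also held more per cell than HSC.

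Cell cycling moved with these gates. By S and G2M gene scores, 20.7% of HSC-gate and 55.3% of MPP4-gate control cells scored above 0. Among control cells class I stood at 4678 CPM in those scoring above 0 and 6361 CPM in the others. In the cells scoring 0 or below alone, the MPP4 gate stood at 0.854 of the HSC gate in the control and 0.901 in the chelator pool.

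**Figure D1:**
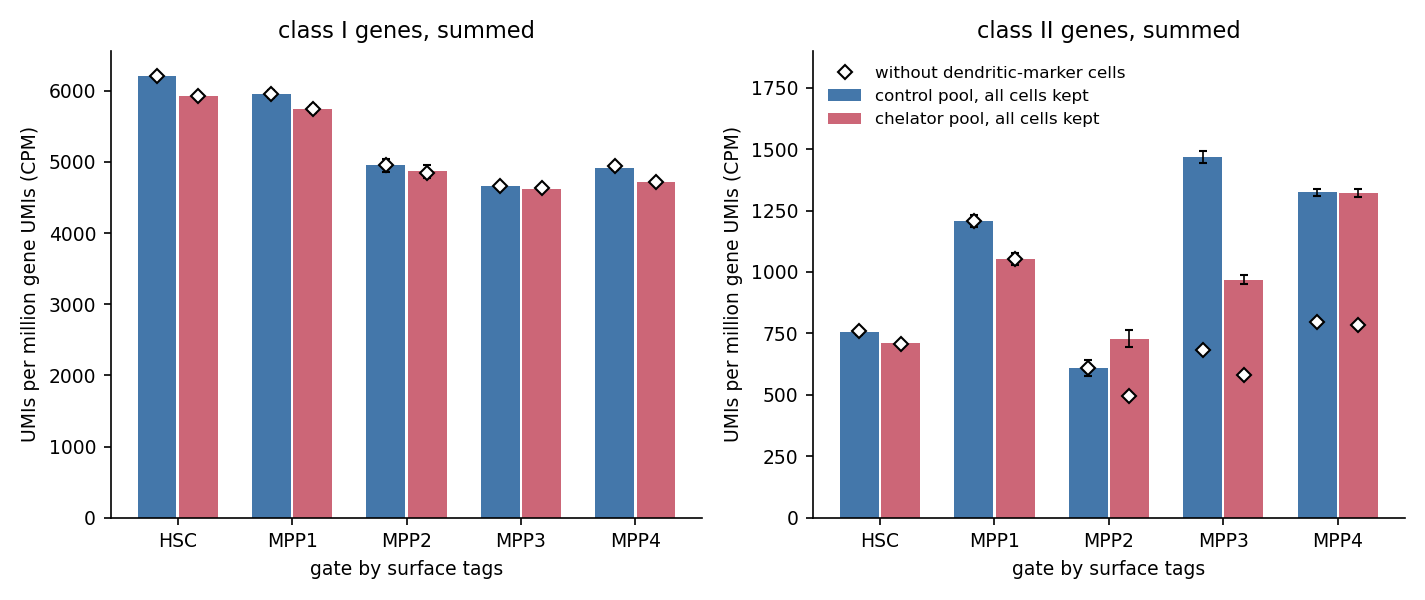
Summed class I (left) and class II (right) levels in UMIs per 1000000 gene UMIs (CPM) for 5 gates by surface tags, with bars for all cells kept in each pool, lines for 95% counting intervals and diamonds for the level without the 64 cells that carry dendritic cell markers. Class I falls from 6212 CPM in the HSC gate to 4918 in the MPP4 gate of the control pool and the diamonds lie on the bars, whereas in the MPP3 and MPP4 gates the class II diamonds lie far below them.

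The classical heavy chains H2-K1 and H2-D1, which present to CD8 T cells, showed the same step. H2-K1 stood at 2011, 1915, 1541, 1487 and 1563 CPM in the HSC, MPP1, MPP2, MPP3 and MPP4 gates of the control pool, and at 1905, 1864, 1512, 1475 and 1515 CPM in the chelator pool. H2-D1 stood at 1461, 1295, 1097, 1097 and 1153 CPM in the control and 1402, 1258, 1109, 1070 and 1105 CPM in the chelator pool. MPP4-gate H2-K1 was 0.777 of the HSC-gate level in the control (0.766 to 0.789) and 0.795 in the chelator pool (0.784 to 0.807). The light chain B2m differed less, with ratios of 0.890 and 0.886.

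Among the non-classical heavy chains, H2-T22 and H2-T23 differed more than the classical pair. H2-T23 encodes Qa-1, the ligand of the inhibitory receptor NKG2A on natural killer cells. Its level was 449 CPM in the HSC and 285 CPM in the MPP4 gate of the control pool, and 435 and 272 CPM in the chelator pool, ratios of 0.635 and 0.626. H2-T22, which is recognised by some gamma-delta T cells, stood at 196 and 117 CPM in the control and 183 and 112 CPM in the chelator pool, ratios of 0.596 and 0.610. The Q genes H2-Q4, H2-Q6 and H2-Q7 had ratios between 0.745 and 0.837. H2-T24 stood at 0.688 and 0.529 of HSC. H2-M3, which presents formylated peptides, did not take part in this difference between the HSC and MPP4 gates. In these gates it stood at 34.2 and 37.8 CPM in the control and 35.1 and 36.8 CPM in the chelator pool. Neither counting interval of its ratio left out 1. In the MPP2 gate it was lower, at 0.612 (0.440 to 0.833) and 0.694 (0.519 to 0.912) of HSC. The class I heavy chains are close copies of each other, so that reads may have been split among them or left out by the authors' counting, and the values of single H2-Q and H2-T genes are uncertain in that respect.

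H2-T3 encodes the thymus leukaemia antigen, a class I-like protein best known from intestinal epithelium. It was nearly confined to the CD48-negative, CD135-negative gates among those examined, with 5.08, 2.80, 0.953, 0.405 and 0.277 CPM in the HSC, MPP1, MPP2, MPP3 and MPP4 gates of the control pool and 3.66, 1.57, 0.435, 0.166 and 0.258 CPM in the chelator pool. The MPP4 gate stood at 0.0545 of the HSC gate in the control pool (0.0213 to 0.117) and 0.0704 in the chelator pool (0.0250 to 0.161). The values rest on 222 UMIs in 208 cells, most of them in the HSC gate, so H2-T3 reached the minimum through the gate where it was high. After each cell was thinned to 5000 UMIs, a UMI was seen in 2.22% of HSC-gate and 0.415% of MPP4-gate control cells. In all, 1 of 31 cells with 3 or more erythroid markers held one as well, a share of 3.23% (0.0816 to 16.7), so the shares alone are not read as expression.

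The peptide supply genes went the other way. Tap2, a subunit of the peptide transporter, stood at 115 CPM in the HSC and 200 CPM in the MPP4 gate of the control pool and at 111 and 189 CPM in the chelator pool. Its ratios were 1.73 (1.65 to 1.83) and 1.70 (1.61 to 1.79). Tap1, the other subunit, had ratios of 1.27 and 1.35. The immunoproteasome subunits Psmb8 and Psmb9, which shape peptides for class I and are not among the 40 genes, had ratios of 1.46 and 1.35 in the control and 1.5 and 1.39 in the chelator pool. Psmb10, a further immunoproteasome subunit, differed little, with ratios of 1.03 (0.978 to 1.08) and 1.09 (1.03 to 1.14). The starts of Tap1 and Psmb9 lie 226 bases apart in opposite orientation. Tapbp, the bridge between transporter and heavy chain, did not share this direction, with ratios of 0.922 and 0.842. Nlrc5, the class I regulator, stood at 46.0 CPM in HSC and 35.7 CPM in MPP4 of the control pool and at 44.6 and 35.3 CPM in the chelator pool, ratios of 0.776 and 0.791. The MPP4 gate therefore combined lower heavy chain RNA with higher transporter RNA in both pools, and both directions held within the Xist cells and the Y cells of each pool, in 4 of 4 strata.

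Counted by a 1.5-fold difference in the same direction in both pools, 3 of the 15 class I genes with at least 200 UMIs were lower in the MPP4 than in the HSC gate (H2-T22, H2-T23 and H2-T3), where 15.6% of the 12513 genes measured at that depth were. Only Tap2 was higher, where 10.4% of all were. At a difference of 25% (a ratio of 0.8 or below when lower), a threshold added after the values were seen, 8 of 15 were lower, beside 23.6% of all genes, and 2 higher, beside 18%. The median log2 ratio of the 15 was -0.34, beside -0.02 for all genes measured. In the MPP3 gate the same 3 genes were past 1.5-fold lower and Tap2 higher, beside 16.3% and 9.84% of all. In the MPP2 gate H2-T3 alone was lower and 0 were higher, beside 14.4% and 7.79%. In MPP1, too, H2-T3 alone was lower and 0 higher, beside 6.27% and 4.58%. H2-T3 reached 200 UMIs through the HSC gate, where it was high, so its place in these lower counts was partly set by that minimum. Without it the lower genes are H2-T22 and H2-T23 in MPP4 and MPP3, and no gene in MPP1 or MPP2.

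Of the class I loading list fixed beside the members (Calr, Canx, Pdia3, Tapbpl, Erap1 and Pdia6), 0 of 6 were past 1.5-fold in the MPP4 gate in either direction, beside 10.4% and 15.6% of all genes, and the chaperone Calr stood at 207 CPM in HSC and 294 CPM in MPP4 of the control pool and at 209 and 272 CPM in the chelator pool. Of 5 immunoproteasome and activator genes, 0 were past 1.5-fold, all 5 lay above 0 on the log2 scale and their median log2 ratio was 0.40. Of 11 interferon signalling genes, Irf8 and Ifngr2 were past 1.5-fold higher, beside 10.4% of all genes, and the feedback inhibitor Socs1 lower, beside 15.6%, with a median log2 ratio of -0.12. These shares lie near those of all genes.

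Over all cells kept, class II RNA was higher in MPP1, MPP3 and MPP4 than in HSC of both pools. Summed over 10 genes (the H2-A, H2-E, H2-DM and H2-O chains and Cd74), it stood at 757, 1207, 609, 1466 and 1324 CPM in the HSC, MPP1, MPP2, MPP3 and MPP4 gates of the control pool and at 709, 1053, 728, 969 and 1321 CPM in the chelator pool. MPP2 lay near HSC or below it. MPP3 was the gate on which the pools differed most. The MPP4 gate stood 1.75-fold above the HSC gate in the control and 1.86-fold in the chelator pool. Of the 10 class II genes with at least 200 UMIs, 9 were past 1.5-fold higher in MPP4 in both pools and 0 lower, beside 10.4% and 15.6% of all genes. Their median log2 ratio was 0.79, beside -0.02 for all genes. In MPP1 5 were past the fold (H2-DMb2, H2-Ob, H2-Ab1, H2-Aa and H2-Eb1), beside 4.58% of all, in MPP3 H2-DMb2, H2-Ob and H2-Ab1, beside 9.84%, and in MPP2 H2-Ob alone, beside 7.79%. H2-Ob, H2-DMb2 and Ciita reached the minimum through gates other than HSC, with 63, 29 and 47 UMIs in HSC of the control pool. Their place in these higher counts was therefore partly set by that minimum. Without them the higher genes are H2-Oa, H2-DMa, H2-Ab1, H2-Aa, H2-Eb1 and Cd74 in MPP4. In MPP1 they are H2-Ab1, H2-Aa and H2-Eb1, in MPP3 H2-Ab1, and in MPP2 no gene. Cells scoring above 0 for cycling held 846 CPM of class II and the others 1542 CPM in the control pool, and 927 and 1146 CPM in the chelator pool. The part of cycling in the gate differences was not tested beyond the values within cells scoring 0 or below.

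A few cells held much of this RNA. Cells with UMIs of at least 2 of 8 dendritic cell markers (Siglech, Itgax, Xcr1, Clec9a, Zbtb46, Cd209a, Ccr9 and Klk1) numbered 41 in the control and 23 in the chelator pool, 1.03% and 0.575% of cells, and held 30.2% and 26.9% of all class II UMIs but 1.10% and 0.676% of class I UMIs. Klk1 was at 0 UMIs in both pools. The summed marker level was 18.6 CPM in the MPP4, 23.2 CPM in the MPP3 and 6.60 CPM in the HSC gate of the control pool, and 14.7, 12.8 and 5.73 CPM in the chelator pool. Of these cells, 28 control and 15 chelator cells lay in the MPP4 gate, where they held 41.1% and 41.4% of the class II UMIs. The MPP3 gate had 7 and 5 of them, with 54.2% and 40.7%, the MPP2 gate 0 and 1, the HSC gate 6 and 2, with 0.400% and 0.204%, and the MPP1 gate 0 in either pool. In the 23 control cells with 3 or more of the markers, class II summed to a median of 858 UMIs per cell (89 to 2080), and in 17 such chelator cells to 1051 (0 to 1713). Ciita, at 4.27 and 4.04 CPM over all cells, stood at 213 and 224 CPM in them.

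Without these 64 cells, class II differed little between the HSC and MPP4 gates, and the genes separated. The sums became 759, 1207, 609, 683 and 797 CPM in the HSC, MPP1, MPP2, MPP3 and MPP4 gates of the control pool and 709, 1053, 496, 580 and 786 CPM in the chelator pool. MPP1 was then the highest gate in both. The MPP4 gate stood 1.05-fold above HSC in the control (1.03 to 1.07) and 1.11-fold in the chelator pool (1.08 to 1.13). The number of class II genes past 1.5-fold higher in MPP4 fell from 9 to 5, beside 10.2% of all genes. These 5 were H2-Oa, H2-DMa, H2-DMb2, H2-Ob and H2-Ab1. As H2-Ob and H2-DMb2 reached the minimum of UMIs through gates where they were high, their place in this count was partly set by it. Without them H2-Oa, H2-DMa and H2-Ab1 remain. Leaving these cells out was decided after the values were seen.

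**Figure D2:**
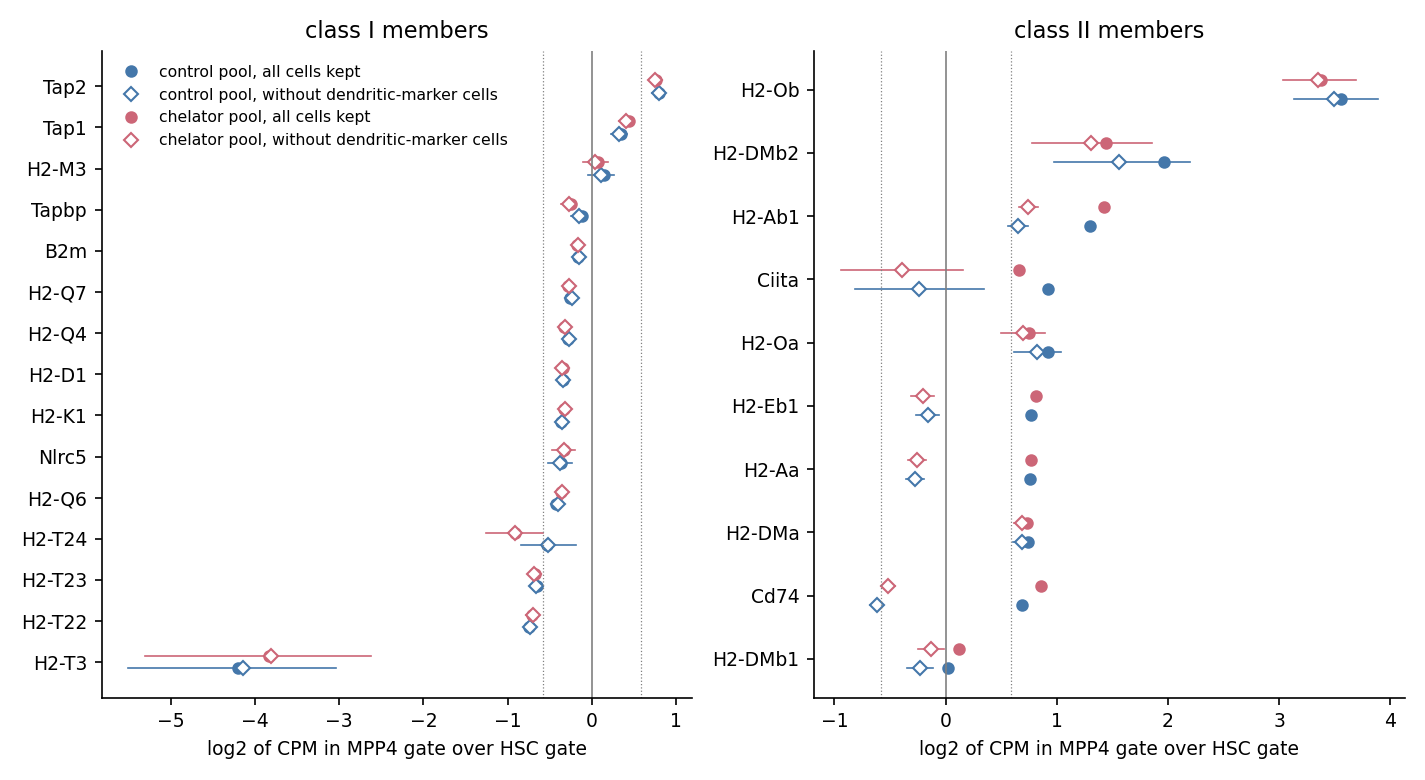
Log2 ratio of CPM in the MPP4 over the HSC gate for the 15 class I and 10 class II genes with at least 200 UMIs, in each pool, with all cells kept (filled circles) and without the dendritic-marker cells (open diamonds, lines for 95% counting intervals). Dotted lines mark 1.5-fold. H2-T3 lies far to the left at ratios of 0.0545 and 0.0704. Cd74, H2-Aa, H2-Eb1, Ciita and H2-DMb1 cross 0 when the dendritic-marker cells are left out, whereas H2-Ob, H2-DMb2, H2-Ab1, H2-Oa and H2-DMa stay right of the dotted line.

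The first set of class II genes is the presenting chains and the invariant chain. H2-Aa, the I-A alpha chain, stood at 132, 213, 42.9, 213 and 222 CPM in the HSC, MPP1, MPP2, MPP3 and MPP4 gates of the control pool and at 127, 193, 125, 139 and 216 CPM in the chelator pool. Without the dendritic-marker cells these became 132, 213, 42.9, 63.8 and 109 CPM and 126, 193, 66.6, 61.9 and 106 CPM. MPP1 was then the only gate above HSC in either pool, and the MPP4 ratio turned from 1.69 and 1.71 to 0.826 (0.780 to 0.875) and 0.838 (0.792 to 0.886). H2-Eb1, the I-E beta chain, turned in the same way, from ratios of 1.70 and 1.76 to 0.894 and 0.868. Cd74 turned from 1.61 and 1.81 to 0.651 (0.624 to 0.679) and 0.697 (0.667 to 0.729). H2-Ab1, the I-A beta chain that pairs with H2-Aa, did not turn: its ratios of 2.46 and 2.69 became 1.57 (1.48 to 1.68) and 1.67 (1.58 to 1.78). Ciita turned from 1.89 and 1.58 to 0.847 and 0.762, and both of these intervals held 1.

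The other set is the peptide editors. H2-Ob, the beta chain of the H2-O heterodimer that restrains H2-DM, rose from HSC to MPP4, with 3.81, 16.9, 16.7, 26.6 and 44.8 CPM in HSC, MPP1, MPP2, MPP3 and MPP4 of the control pool and 4.38, 14.5, 14.8, 26.8 and 45.6 CPM in the chelator pool. MPP4 stood 11.8-fold above HSC in the control (9.12 to 15.4) and 10.4-fold in the chelator pool (8.33 to 13.1). It reached the minimum of UMIs through the gates where it was high, with 63 UMIs in HSC and 1132 in MPP4 of the control pool. Without the dendritic-marker cells the ratios were 11.3 and 10.2. Its partner H2-Oa stood at 16.0 and 30.2 CPM in HSC and MPP4 of the control and 16.8 and 28.1 CPM of the chelator pool, and its ratios without those cells were 1.77 and 1.62. H2-DMa, the alpha chain of the editor that removes the Cd74 fragment from class II, had ratios of 1.67 and 1.67, and of 1.61 and 1.61 without those cells. Of its beta chains, H2-DMb2 had 2.95 and 2.47 without those cells, from 553 UMIs in all, whereas H2-DMb1 had ratios of 1.02 and 1.09 with them and 0.853 and 0.912 without. The chains of 1 heterodimer thus did not move together across gates. The H2-DMb pair are near copies, so that reads may be split between them.

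Shares of cells with a UMI were counted as well. With every cell thinned to 5000 UMIs, H2-Ob was seen in 1.77% of HSC-gate and 19.9% of MPP4-gate control cells and in 1.81% and 20.9% of chelator cells. H2-Ab1 was seen in 28.0% and 47.6% of control and 29.5% and 46.1% of chelator cells. H2-Aa was seen in 33.5% and 32.0% of control and 31.8% and 32.3% of chelator cells, and Cd74 in 38.0% and 34.6% of control and 35.0% and 30.8% of chelator cells. In MPP1 those of H2-Aa were 47.2% and 42.7% and those of Cd74 49.7% and 44.9%. Thinning left out 159 control and 138 chelator cells that were shallower. Unthinned, H2-Aa was seen in 48.5% of HSC-gate and 49.2% of MPP4-gate control cells and H2-Ob in 4.64% and 42.7%. In 31 cells with 3 or more erythroid markers, taken as cells that should lack these genes, the thinned share of H2-Aa was 25.8% (11.9 to 44.6), that of H2-Ab1 29.0% (14.2 to 48.0) and that of H2-Ob 9.68% (2.04 to 25.8), at a median depth of 27834 UMIs. These intervals cover the H2-Aa and H2-Ab1 shares in HSC and MPP4 and the H2-Ob shares in MPP4, and the H2-Ob shares in HSC lie below them. These 31 cells came from the same sorted pools and their intervals are wide, so they cannot decide what share is background. The shares are therefore not read as expression, and no conclusion on the gates is drawn from them.

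**Figure D3:**
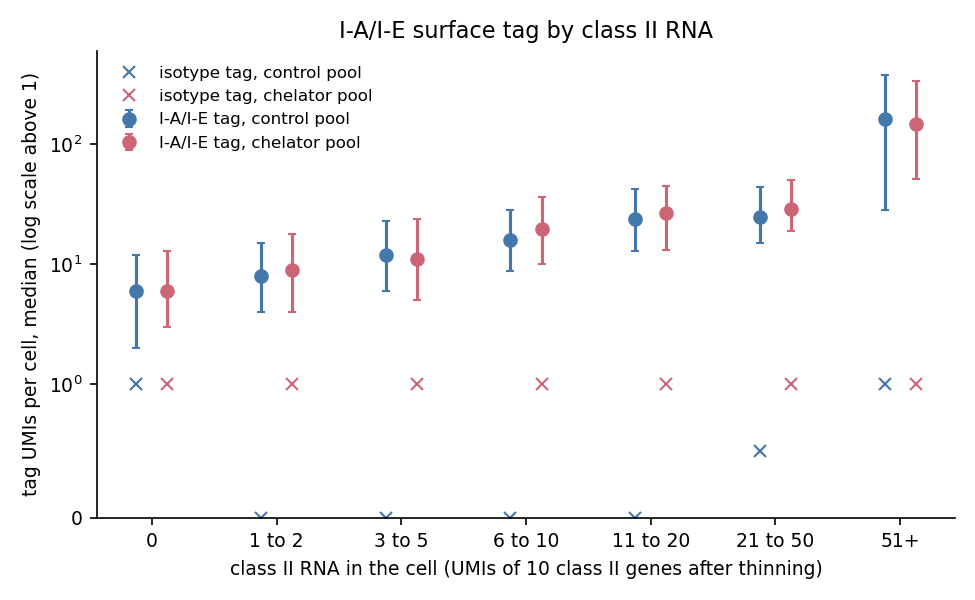
Median UMIs of the I-A/I-E surface tag per cell (points, lines for the quartiles, log scale above 1) and of an isotype control tag (crosses) by the class II UMIs of the same cell over 10 class II genes after thinning to 5000 UMIs, in each pool. The tag median climbs from 6 in cells with 0 class II UMIs to 161 and 147.5 in those with over 50, while the isotype median stays at 1 or below.

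The surface protein followed the RNA of the same cell. In the control pool the I-A/I-E tag, which binds the class II molecules H2-A and H2-E, had a median of 6 UMIs in 526 cells without a class II UMI after thinning, 12 in cells with 3 to 5, 24 in cells with 11 to 20, and 161 in 27 cells with over 50. In the chelator pool these medians were 6, 11, 26.5 and 147.5. The isotype control tag RTK4530 stayed at a median of 1 or less in each bin, so that cells with 0 class II UMIs still lay above it. By gate the tag stood at 2.57, 6.28, 3.85, 7.31 and 8.71 per 1000 tag UMIs in HSC, MPP1, MPP2, MPP3 and MPP4 of the control pool and at 2.54, 6.32, 4.43, 7.18 and 9.19 in the chelator pool. MPP4 stood 3.39-fold above HSC in the control and 3.62-fold in the chelator pool, and the isotype tag 1.05-fold and 0.979-fold. Part of this scale is the tag total, whose median was 4315 UMIs in HSC-gate and 2366 in MPP4-gate control cells. In raw UMIs the median cell had 7 and 13 in the HSC and MPP4 gates of the control pool, so the median cell differed between these gates too. The tag ratios between gates include the dendritic-marker cells and are not given without them. Without those cells the MPP4 over HSC ratios of class II RNA were 1.05 and 1.11. Those of H2-Aa were 0.826 and 0.838, those of H2-Eb1 0.894 and 0.868 and those of H2-Ab1 1.57 and 1.67. With all cells kept, as for the tag, H2-Aa had 1.69 and 1.71 and H2-Eb1 1.70 and 1.76. H2-Ab1 had 2.46 and 2.69, so all these chains then shared the tag's direction. Whether tag and RNA go together without the dendritic-marker cells was not tested.

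Among costimulatory molecules, which T cells need beside MHC, the CD86 tag moved most, with 2.92 and 12.2 per 1000 tag UMIs in HSC and MPP4 of the control and 2.79 and 12.5 of the chelator pool. Cd86 RNA stood at 1.39 and 6.33 CPM and at 1.5 and 7.47 CPM. The CD40 tag had ratios of 1.03 and 1.05, and the CD1d tag, a class I-like molecule that presents lipids, of 1.36 and 1.34. The tag of CD274 (PD-L1), an inhibitor of T cells named here after its values were seen, was lower in MPP4, at 0.784 and 0.767 of HSC. Of the class II loading list, 4 of 6 genes were past 1.5-fold higher in the MPP4 gate (Ctss, Ifi30, Lgmn and March1), beside 10.4% of all genes, and Ctsl was lower, beside 15.6%. March1 rested on few UMIs, 31 in HSC and 73 in MPP4 of the control pool. The protease Ctss, which cuts Cd74, stood at 2.66 and 28.2 CPM in the control and 2.68 and 30.7 CPM in the chelator pool. Of 7 genes of the factors that hold Ciita at class II promoters (the Rfx, Nfy and Creb1 genes), 0 were past 1.5-fold, beside the same 10.4% and 15.6%, with a median log2 ratio of 0.09. These list counts include the dendritic-marker cells.

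The chelator pool differed little from the control pool in these genes. Class I stood at 5375 CPM in the control and 5207 CPM in the chelator pool, a ratio of 0.969 (0.964 to 0.973), and class II at 1134 and 1011 CPM, a ratio of 0.891 (0.882 to 0.901). Only H2-T3 and Cd74 were lower by the fold used between pools (a ratio of 0.8 or below) and 0 of 25 were higher by 25%, beside 1.61% and 1.41% of all genes. Of the 25 genes, 23 lay below a ratio of 1, and their median log2 ratio was -0.07, while the median ratio of all genes was 0.998. Among the class I heavy chains, H2-K1 and H2-D1 had ratios of 0.971 and 0.968, and H2-Q4 and H2-Q6 of 0.921 and 0.917. Tap1, Tap2 and Tapbp stood at 1.005, 0.953 and 0.924. Among the class II chains, H2-Aa, H2-Ab1 and H2-Eb1 had ratios of 0.905, 0.956 and 0.917, and H2-DMa lay above 1 at 1.02. The I-A/I-E tag stood at 5.42 and 5.29 per 1000 tag UMIs, a ratio of 0.977.

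Sex make-up moved with these differences, as the chelator pool held fewer Xist cells. Its part in them was not tested beyond the values within each sex. Within Y cells class I stood at 4993 and 5025 CPM in the control and chelator pools and class II at 869 and 913 CPM, so that neither was lower in the chelator pool. Within Xist cells class I stood at 5770 and 5662 CPM and class II at 1306 and 1145 CPM. Without the dendritic-marker cells, class II in Xist cells was 923 and 921 CPM, a ratio of 0.998 (0.977 to 1.02), and in Y cells 646 and 666 CPM, a ratio of 1.03 (1.01 to 1.05). Below a ratio of 1 lay 20 of 25 genes in Xist cells and 11 of 25 in Y cells. H2-Q4 and H2-Q6 were below 1 with both counting intervals in either sex, at 0.939 and 0.930 in Xist cells and 0.948 and 0.961 in Y cells. Of the class I loading, class II transcription, interferon signalling and costimulation lists and the immunoproteasome genes, 0 passed the fold between pools, beside 1.41% of all genes higher and 1.61% lower, and of the class II loading list March1 alone was lower, on 172 and 106 UMIs.

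Cd74, the invariant chain, was the largest class II difference between pools. It stood at 398 CPM in the control and 313 CPM in the chelator pool, a ratio of 0.787, and at 0.790 without the dendritic-marker cells. Without them the ratio was 1.02 (0.978 to 1.06) in Xist cells, 0.966 in Y cells and 0.490 (0.462 to 0.519) in cells of unassigned sex. The MPP3 gate held the widest gap, with 599 CPM in the control and 299 CPM in the chelator pool. In that gate 7 control cells with 3 or more B cell markers held 23.0% of the Cd74 UMIs and 2 such chelator cells 11.6%. With every cell left out that had UMIs of 2 or more markers of any of 6 mature cell lists, MPP3 Cd74 stood at 75.2 and 61.2 CPM, a ratio of 0.814 (0.724 to 0.915), and Cd74 in all cells at a ratio of 0.856. In the HSC gate Cd74 stood at 267 and 225 CPM, a ratio of 0.843, and in the MPP1 gate at 433 and 325 CPM, a ratio of 0.751. The sexes went apart in these gates, a split added after the values were seen: in HSC the ratio was 0.817 (0.765 to 0.872) in Xist cells and 1.16 (1.08 to 1.24) in Y cells, and in MPP1 it was 0.598 (0.546 to 0.655) in Xist cells and 1.02 (0.940 to 1.11) in Y cells. In the same gates of the control pool Cd74 stood 2.69-fold and 2.35-fold higher in Xist than in Y cells. The part of the unequal sex shares in the pooled ratios was not tested. Other gates went the other way: MPP4 had ratios of 1.20 in Xist and 0.973 in Y cells, and MPP2 of 2.28 and 0.562. In MPP3 they were 0.391 and 0.887 with the dendritic-marker cells, and 1.42 and 0.646 without them. The split by sex thus had no single direction across gates. H2-T3, the other gene past the fold, had ratios of 0.605 (0.342 to 1.03) in Xist cells and 1.02 (0.681 to 1.53) in Y cells, on 222 UMIs in all.

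By gate, class I was lower in the chelator pool in HSC, MPP1 and MPP4, with ratios of 0.954, 0.965 and 0.959, whereas the intervals around the MPP2 and MPP3 ratios of 0.983 and 0.992 held 1. Class II in the MPP4 gate stood at 1324 and 1321 CPM, a ratio of 0.998 (0.983 to 1.01). In MPP1, where no dendritic-marker cell lay, class II stood at 1207 and 1053 CPM, a ratio of 0.873 (0.846 to 0.900). Within that gate the level of Xist cells was 1731 and 1185 CPM and that of Y cells 850 and 955 CPM, in opposite directions.

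**Figure D4:**
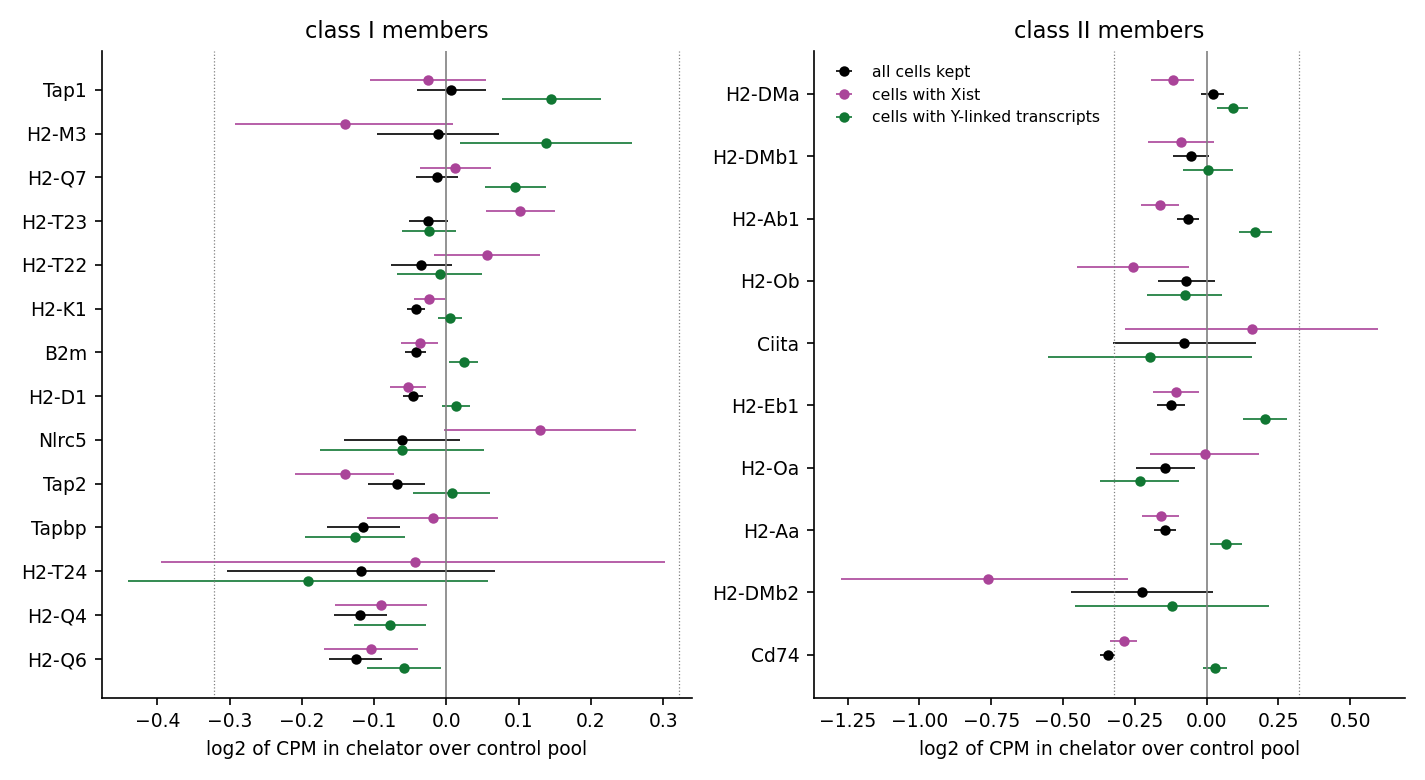
Log2 ratio of CPM in the chelator over the control pool for 14 class I and 10 class II genes with at least 200 UMIs (H2-T3, with wide intervals, is left out), in all cells kept, in Xist cells and in Y cells, with 95% counting intervals. Dotted lines mark 25% higher and a ratio of 0.8. Most black points lie left of 0, and for H2-Ab1, H2-Eb1, H2-Aa and H2-DMa the purple and green points lie on opposite sides of 0.

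A larger difference than that between the pools lay between Xist cells and Y cells of the same pool, a comparison added after the values were seen. Class I stood 1.16-fold higher in Xist cells in the control (1.15 to 1.16) and 1.13-fold in the chelator pool (1.12 to 1.14). Class II stood at 1306 CPM in Xist cells against 869 CPM in Y cells of the control pool and at 1145 against 913 CPM in the chelator pool. Without the dendritic-marker cells these were 923 against 646 CPM and 921 against 666 CPM. Class I was higher in Xist cells in 10 of 10 gates of either pool and class II in 9 of 10, the exception being MPP3 of the chelator pool at 0.721. Higher by 25% or more in both pools were 5 of 25 genes (Nlrc5, H2-Q7, H2-Aa, H2-Eb1 and Cd74) and 0 were lower, beside 1.37% and 2.08% of all genes. H2-Eb1 stood 1.95-fold and 1.57-fold higher in the control and chelator pools, and H2-Q7 1.37-fold and 1.30-fold. Nlrc5, the class I regulator, stood 1.43-fold higher in the chelator pool and past the fold in the control pool (interval 1.15 to 1.36).

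The I-A/I-E tag shared the direction, at 6.78 and 4.64 per 1000 tag UMIs in control Xist and Y cells and at 6.44 and 5.01 in chelator cells. Irf1, an interferon-induced transcription factor of the interferon signalling list, was higher by 25% or more in Xist cells of both pools, at 1.35-fold and 1.36-fold. H2-Ob did not take part, with ratios of 0.921 and 0.814. How many animals of each sex gave these cells is not given in the labels used here, so sex and single animals cannot be told apart. Doublets of both sexes fall in neither class.

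**Figure D5:**
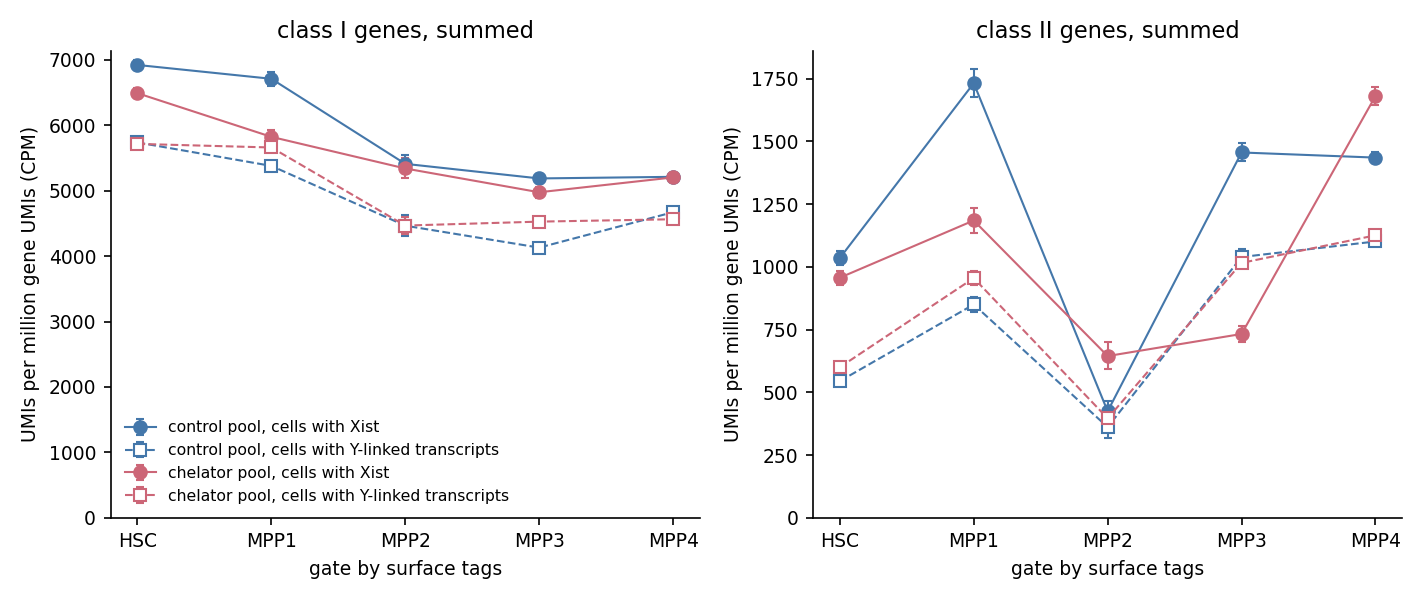
Summed class I (left) and class II (right) levels in CPM by gate for Xist cells (filled circles, solid lines) and Y cells (open squares, dashed lines) of each pool, with 95% counting intervals. Cells with Xist lie above those with Y-linked transcripts of their pool in each gate for class I, and for class II in each but MPP3 of the chelator pool.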

How the data were processed

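RNA and antibody tags were measured by CITE-seq in LSK cells of 1 control and 1 chelator pool. The authors deposited 1 matrix per condition of raw UMI counts per gene or tag and cell, per the file headers written by Cell Ranger 7.0.1. The submitters' processing notes name build mm10, Cell Ranger 7.0.0 and Seurat 4.3.0. How genes were annotated, strand was set, cells were called and hashtags assigned is not given in the sources used here. With the 5′ kit each molecule counts as 1 UMI, so values carry no length correction. All value columns were used (0 left aside).

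Kept were cells of 500 or more detected genes whose mitochondrial share of UMIs stayed under 10%. Gate thresholds were set on centred log ratios of tag counts by a mixture of 2 components per tag over both pools (scikit-learn 1.9.0). Counts were summed over cells and divided by total gene UMIs (CPM). Ratios carry exact conditional binomial, levels exact Poisson and shares Clopper-Pearson 95% intervals (scipy 1.17.1). Only the chelator over control ratio was run on simulated data, with independent Poisson counts, as the interval itself assumes. That run cannot show how the intervals hold for counts gathered in few cells, such as those of class II. No doublet caller was run: cells with both Xist and Y-linked UMIs numbered 35 in the control and 52 in the chelator pool. Xist cells had at least 2 Xist UMIs and no Y-linked UMI, and Y cells at least 1 UMI of 4 Y-linked genes and no Xist. Background shares were taken over 12513 genes with at least 200 UMIs. Cycle scores used scanpy 1.11.5. For thinning, 5000 UMIs were drawn per cell.

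Members and lists were chosen with earlier results of these data known. Named are all members with at least 200 UMIs and, of each list, those with most UMIs or past the fold. For the sums, 14 alternatives were planned. Leaving out dendritic-marker cells or cells with both sex markers, the 25% count by gate and the comparison by sex were added after values were seen. Gene positions are those of RefSeq, GRCm38.p6. All 40 members were found there by symbol.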

Additional observations from a re-analysis of the deposited data

Results flagged for a closer look

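For 6 results the chelator over control ratio lay below 1 in Xist cells and above 1 in Y cells, with both counting intervals leaving out 1. The difference itself was not tested, as each pool is 1 sample. Summed class II had a ratio of 0.877 in Xist cells and 1.05 in Y cells. H2-Ab1 had 0.894 and 1.12, H2-Aa 0.895 and 1.05, H2-Eb1 0.929 and 1.15, and the peptide editor H2-DMa 0.921 and 1.07. The light chain B2m had 0.975 and 1.02. Without the dendritic-marker cells the ratio in Xist cells became 0.998 for summed class II, 0.982 for H2-Ab1, 1.03 for H2-Aa and 1.10 for H2-Eb1, while in Y cells it became 1.03, 1.10, 1.05 and 1.17.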

How the results depend on the processing

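The ratio of MPP4 over HSC, as the geometric mean of both pools, was 0.794 for class I and 1.80 for class II. Class I stayed below 1 and class II above 1 in each of 15 alternatives. Class I ranged from 0.769 to 0.877 and class II from 1.08 to 1.95. Class I became 0.785 without cells near a tag threshold, 0.877 in cells scoring 0 or below for cycling, 0.777 in Xist cells, 0.806 in Y cells, 0.769 with a total without ribosomal protein and mitochondrial genes, 0.782 against the median gene ratio, 0.802 as a mean over cells and 0.801 without mature cells. In the same order class II became 1.67, 1.84, 1.56, 1.95, 1.75, then 1.64 as a mean over cells and 1.11 without mature cells. It was 1.84 with thresholds per pool, 1.69 after thinning, 1.12 without the richest 1% of cells and 1.08 without dendritic-marker cells, where class II genes past 1.5-fold fell from 9 to 5. The chelator over control ratio of class I became 0.977 in cells scoring 0 or below, 0.981 in Xist cells, 1.01 in Y cells and 0.993 with sexes weighted equally. That of class II became 0.743, 0.877, 1.05 and 0.946 in these settings, 0.932 without mature cells, 0.933 without the richest 1%, 0.877 after thinning, 0.928 without dendritic-marker cells and 0.881 without cells of both sex markers. In Y cells H2-T3 stood at 1.02 and Cd74 at 1.02. With a minimum of 50 in place of 200 UMIs, genes past the fold between pools rose from 177 to 627 (higher) and from 202 to 604 (lower). The cause of these shifts was not tested. No paired analysis was possible because each condition is 1 pool. Depth limits H2-T3, Ciita and H2-DMb2, with 222, 539 and 553 UMIs.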

Other observations

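Cells with 3 or more B cell markers, 15 in the control and 8 in the chelator pool, carried summed class II RNA of another make-up than the dendritic-marker cells. Cd74 stood at 3638 and 2163 CPM in them and H2-Aa at 15.7 and 41.3 CPM. In the control cells Cd74 had a median of 68 UMIs (0 to 487), H2-Aa of 0 (0 to 4) and H2-Ab1 of 4 (0 to 14), and Ciita and H2-DMb2 were at 0 UMIs. In the chelator cells the Cd74 median was 8 (0 to 330). Not all were rich in Cd74: 7 control cells in the MPP3 gate held 1361 UMIs and 5 in the MPP4 gate 1. In the 23 control cells with 3 or more dendritic cell markers, Cd74 had a median of 377 UMIs, H2-Aa of 170 and H2-Ab1 of 125. Cells with 3 or more monocyte or macrophage markers, 17 and 30, had class II at 573 and 649 CPM. In the MPP2 gate of the control pool a single B-marker cell held 442 Cd74 UMIs, 78.8% of those of the gate. All 11 UMIs of H2-M10.1 lay in 1 chelator cell with 51091 gene UMIs. These cells were singled out after their values were seen.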
